A study of Mus musculus with 24 samples.

Results

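The FGF4-ERK genes described here are 10 genes that make, receive or answer the FGF4 signal in mouse embryonic stem cells (ESCs): Fgf4, Fgfr1, Fgfr2, Dusp4, Dusp6, Spry2, Spry4, Spred1, Etv4 and Etv5. They were chosen by name, with earlier results of these data known, and all 10 were found among the 26264 genes of the count table. The shares of all genes given beside counts of members are therefore a description and no test. Poly(A) RNA-seq was available for 24 libraries, 2 in each of 12 groups. The groups were BAP1-AID and UTX-AID ESCs, without or with indole-3-acetic acid (IAA, an auxin), at 0, 3 or 6 h of retinoic acid (RA).

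All groups shared the same background. The cells were mouse ESCs kept in serum and leukemia inhibitory factor (LIF) on gelatin. In BAP1-AID cells an HA-AID tag was placed at the C terminus of BAP1, the H2AK119 deubiquitinase. In UTX-AID cells the tag was placed at the N terminus of UTX, the H3K27 demethylase encoded by Kdm6a. TIR1, the plant adaptor that lets auxin send a tagged protein to the proteasome, was stably overexpressed in both lines. IAA was given at 100 μg/ml for 2 h before RA, from an ethanol stock, and what the cells without IAA received in its place was not given in the sources used here. RA was used at 2 μM in medium without LIF, so RA and the loss of LIF cannot be told apart in any comparison over time. The tagged lines were isolated as monoclones, and the labels name no further clone of either, so the clone and the tagged protein cannot be told apart between the lines.

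FGF4 is the main FGF that undifferentiated ESCs secrete. It binds FGFR1 and FGFR2 with heparan sulfate, and the receptors act through FRS2, GRB2, SOS and RAS on the kinases RAF, MEK and ERK. Active ERK relieves repression by CIC and ERF and switches on the ETS factors ETV4 and ETV5 and a set of its own inhibitors. DUSP4 and DUSP6 are phosphatases that dephosphorylate ERK, and the Sprouty proteins SPRY2 and SPRY4 and the related SPRED1 act between the receptor and RAF. In ESCs the pathway is known for moving cells out of the naive state, and RA is known to lower Fgf4 in cells that leave it.

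In GRCm39, the ligand gene Fgf4 lies at chr7:144415012-144418985 on the plus strand with 3 exons. The receptor genes have 18 exons each and lie at chr8:26008745-26066824 on the plus strand (Fgfr1) and chr7:129763471-129868272 on the minus strand (Fgfr2). The phosphatase genes lie on plus strands at chr8:35274442-35287048 (Dusp4, 4 exons) and chr10:99099068-99103361 (Dusp6, 3 exons). Spry2 lies at chr14:106128766-106134792, and both it and Spry4 lie on minus strands with 2 exons each, and Spred1 (chr2:116951540-117012760) on the plus strand with 7. The ETS genes lie on minus strands with 13 exons each, at chr11:101660568-101676197 (Etv4) and chr16:22200057-22258483 (Etv5). The counts are per gene and do not separate exons or isoforms.

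Sequences upstream of the members were read to see whether genes that moved differently share short motifs there. The 250 bases before the annotated start of the canonical transcript (GENCODE vM39, genome build GRCm39) were searched on both strands for 2 forms of the octamer bound by CIC (TGAATGAA and TGAATGGA), the ETS core CCGGAA, the hexamer AGGTCA, a core that RA receptors bind, and the cyclic AMP response element TGACGTCA. A CIC octamer of either form was present in 4 of 10 members (Dusp4, Spry4, Etv4 and Etv5), against 2.04% of 21734 promoters of protein-coding genes. Etv4 held 3 of them, beginning 174, 138 and 119 bases before the start, Etv5 held 1 at 195 bases and Dusp4 held 1 at 90 bases. The AGGTCA hexamer was present in Spry2 only, 225 bases before the start, against 13.1% of all promoters. The ETS core was present in Spry4 only (12.4% of all promoters), and the cyclic AMP response element in none of the members (1.69%). No match overlapped another. The 4 upstream regions shown are those of Etv4, which rose with RA, of Etv5 and Dusp4, which hold the same octamer and fell, and of Spry2, which fell and holds the AGGTCA hexamer. They run 5′ to 3′ on the strand of the gene, with a match on either strand in capitals (the one in Dusp4 lies on the opposite strand) and the last base next to the start.
Etv4, chr11:101676198-101676447, minus strand: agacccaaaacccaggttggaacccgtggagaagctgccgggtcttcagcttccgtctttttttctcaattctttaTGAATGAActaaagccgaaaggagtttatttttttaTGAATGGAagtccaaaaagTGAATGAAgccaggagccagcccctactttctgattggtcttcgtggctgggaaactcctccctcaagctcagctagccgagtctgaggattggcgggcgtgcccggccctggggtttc
Etv5, chr16:22258484-22258733, minus strand: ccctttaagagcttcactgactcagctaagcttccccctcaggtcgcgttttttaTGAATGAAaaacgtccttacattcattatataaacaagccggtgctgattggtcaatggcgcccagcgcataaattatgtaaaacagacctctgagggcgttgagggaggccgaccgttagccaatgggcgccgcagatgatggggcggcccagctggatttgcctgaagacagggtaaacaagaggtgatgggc
Dusp4, chr8:35274192-35274441, plus strand: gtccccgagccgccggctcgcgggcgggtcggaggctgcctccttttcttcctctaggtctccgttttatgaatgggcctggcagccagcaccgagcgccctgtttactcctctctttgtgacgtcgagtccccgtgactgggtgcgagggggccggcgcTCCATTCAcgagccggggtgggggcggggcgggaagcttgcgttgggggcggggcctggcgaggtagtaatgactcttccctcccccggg
Spry2, chr14:106134793-106135042, minus strand: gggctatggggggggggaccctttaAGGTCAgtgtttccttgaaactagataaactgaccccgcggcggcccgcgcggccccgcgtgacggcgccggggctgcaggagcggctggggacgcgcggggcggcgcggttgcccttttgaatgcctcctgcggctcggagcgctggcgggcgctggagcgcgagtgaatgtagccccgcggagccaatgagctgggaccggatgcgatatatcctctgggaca
A match describes these letters alone, and a missing match says only that they were not in this window.

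The members were well covered. The libraries held between 42018795 and 54034789 counts, and the members' counts ranged from 379 (Dusp4 in a UTX-AID library without IAA at 6 h) to 25920, and each member passed the filter on low counts in each fit. Values are given as CPM, a library's counts scaled to a common total, after TMM scaling. A fold change is on the log2 scale with its standard error (SE), and a gene is said to rise or fall where edgeR's quasi-likelihood test gave an adjusted p under 0.05 over all genes tested in that fit. Nothing in the sources says that the 2 replicates of a group came from separate cultures, so the p-values measure the spread between these libraries, which may be technical.

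The markers of ESCs were high and those of other cells low in each library. The pluripotency markers Pou5f1, Sox2, Nanog, Zfp42, Esrrb, Tdgf1 and Klf4 summed to between 2593 and 3040 CPM in BAP1-AID and between 2670 and 2968 CPM in UTX-AID libraries. The primitive endoderm list summed to at most 8.75 CPM, the trophectoderm list to at most 15.2 CPM and the fibroblast list to at most 5.77 CPM, and 9 of those 15 markers, Sox17, Cdx2 and Col1a1 among them, were under 1 CPM on average. IAA removes protein, so the transcripts of the tagged genes do not check it. Bap1 lay between 94.4 and 105 CPM without and between 94.1 and 106 CPM with IAA in BAP1-AID libraries, and Kdm6a between 93.3 and 113 CPM without and between 107 and 124 CPM with IAA in UTX-AID libraries. The RA targets Cyp26a1 and Rarb both rose in both lines at 3 and 6 h. Cyp26a1, which degrades RA, went from 1.09 and 1.21 CPM to 481 and 487 CPM by 6 h in BAP1-AID cells without IAA, and from 0 and 0.712 CPM to 121 and 128 CPM in UTX-AID cells.

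At 0 h without IAA the members spanned a wide range of levels. Per kb of canonical transcript, Etv5 (123 ± 0.643 CPM per kb, SD, n = 2) and Fgf4 (87.1 ± 2.24) were highest in BAP1-AID cells. Dusp6 (29.0 ± 0.770), Spry4 (24.9 ± 1.64), Spry2 (24.7 ± 0.475), Fgfr1 (20.7 ± 1.20) and Dusp4 (20.4 ± 2.74) followed, and the libraries of Spry4 and Spry2 overlapped, as did those of Fgfr1 and Dusp4. Etv4 (14.7 ± 0.108), Spred1 (10.2 ± 0.948) and Fgfr2 (3.54 ± 0.660) were lowest. The order in UTX-AID cells began alike, with Etv5 (74.0 ± 0.0913) and Fgf4 (69.2 ± 2.25), and then placed Etv4 (28.8 ± 0.956) and Spry4 (25.4 ± 0.882) above Dusp6 (22.1 ± 1.82), Spred1 (20.0 ± 1.32) and Spry2 (16.2 ± 0.107), with the libraries of Dusp6 and Spred1 overlapping. Fgfr1 (9.11 ± 0.637), Dusp4 (5.06 ± 0.439) and Fgfr2 (1.68 ± 0.123) closed it. The receptor transcripts were thus ordered alike in both lines, with Fgfr1 above Fgfr2. Exons of Fgfr1, Dusp6, Spry2 and Etv4 overlap long noncoding genes on the opposite strand in the annotation, and since strandedness was not given in the sources used here, their reads cannot be told apart.

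**Figure D1:**
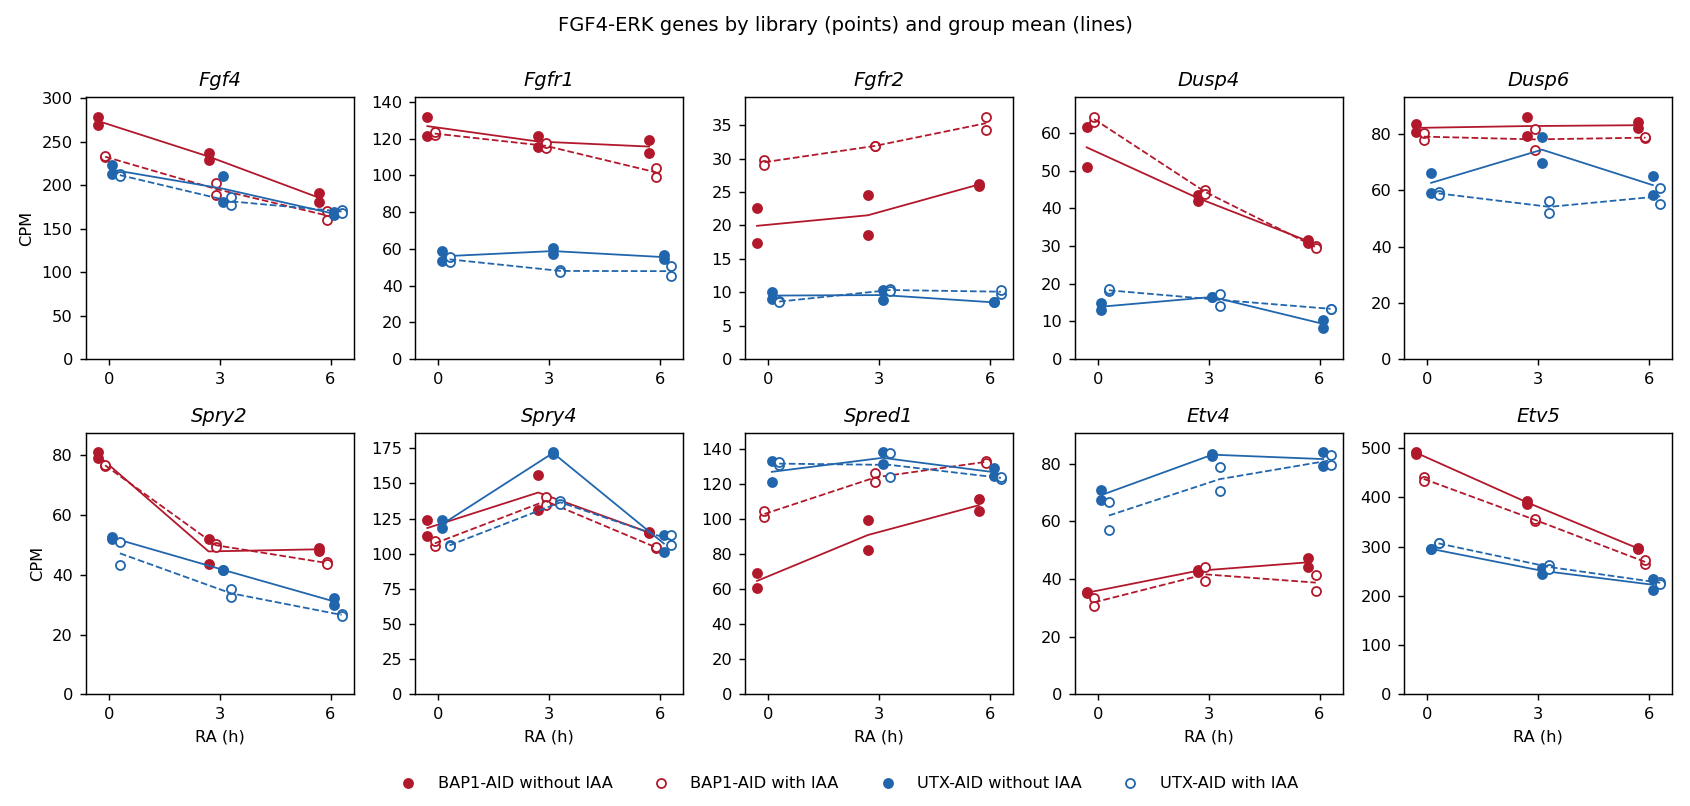
CPM of the 10 members (vertical axes, each from 0) against hours of RA, with filled points for libraries without and open points for libraries with IAA, red for BAP1-AID and blue for UTX-AID, shifted sideways to be visible; lines join group means of 2 libraries. Fgf4, Etv5, Spry2 and Dusp4 are lower at 6 h than at 0 h in each line and arm, Spry4 peaks at 3 h, and Dusp6 is near its 0 h level at 6 h.

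The first comparison asked how the pathway's output genes behave over 6 h of RA without LIF. Fgf4, Dusp4, Spry2 and Etv5 fell by 6 h in both lines, without and with IAA, each against its own 0 h libraries. Spry4 rose at 3 h in UTX-AID cells and, with IAA, in BAP1-AID cells, and did not pass the test at 6 h. Etv4 rose in 2 of the 4 settings at 6 h, and Spred1 rose in BAP1-AID cells. Dusp6 and Fgfr2 passed the test in none of the 8 comparisons with 0 h. At 6 h without IAA, 4 members fell and 2 rose in BAP1-AID cells, where 5.17% of all tested genes fell and 10.9% rose. In UTX-AID cells 4 fell and 0 rose, against 2.82% and 4.46% of all genes. The 10 members had a median log2 fold change of -0.08 in the former line and -0.16 in the latter, against 0.02 and -0.003 over all genes. None of these members also passed an absolute log2 fold change over 1, the size the authors required.

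Fgf4 is the ligand of the pathway. It stood at 279 and 269 CPM at 0 h, 237 and 229 CPM at 3 h and 191 and 180.4 CPM at 6 h in BAP1-AID cells without IAA. In UTX-AID cells without IAA it stood at 213 and 223 CPM, 181 and 211 CPM, and 169 and 165 CPM. The 0 h and 6 h libraries did not overlap in either line. With 2 libraries a side, this was so for 8 of 10 members in BAP1-AID and 7 in UTX-AID cells. The share over all genes was not counted, so nothing is read from it. Fgf4 fell by 6 h with a log2 fold change of -0.56 ± 0.065 (SE) in BAP1-AID (adjusted p = 5.18e-05) and -0.38 ± 0.062 in UTX-AID cells (adjusted p = 0.000345). With IAA the values were -0.50 ± 0.065 and -0.31 ± 0.062 (adjusted p = 0.000126 and 0.00274). All 4 calls held with each library left out in turn. At 3 h Fgf4 passed in BAP1-AID cells without IAA (-0.24 ± 0.064, adjusted p = 0.0374) and with it (-0.25 ± 0.064, adjusted p = 0.034). The former call was lost without any 1 library other than the 2 at 3 h without IAA (adjusted p up to 0.193), and the latter without any 1 of the 4 libraries compared (adjusted p up to 0.250). In UTX-AID cells the 3 h values were -0.14 ± 0.062 and -0.21 ± 0.062 (adjusted p = 0.251 and 0.0618).

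Of the receptors, Fgfr1 passed the test once and Fgfr2 not at all against 0 h. Fgfr1 lay between 112 and 132 CPM in BAP1-AID and between 53.2 and 60.2 CPM in UTX-AID cells without IAA over all 3 times. It passed the test only at 6 h with IAA in BAP1-AID cells, where it went from 122 and 124 CPM to 104 and 99.0 CPM (log2 fold change -0.27 ± 0.067, adjusted p = 0.0142). That call was lost without either 0 h library or the second 6 h library of the arm (adjusted p up to 0.109). Fgfr2, the scarcest member, went from 17.3 and 22.6 CPM to 26.0 and 26.3 CPM by 6 h in BAP1-AID cells without IAA (0.40 ± 0.133, adjusted p = 0.0639) and from 9.99 and 9.02 CPM to 8.50 and 8.48 CPM in UTX-AID cells (-0.16 ± 0.146, adjusted p = 0.685). Neither difference passed, but that in BAP1-AID cells did so with the GC and length offsets (0.36, adjusted p = 0.0276). It ran from 0.22 to 0.59 with 1 library left out, with adjusted p from 0.00619 to 0.443, and passed without the second 0 h library or either 3 h library of the arm.

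Both ERK phosphatases were measured, and their courses differed. Dusp4 stood at 50.9 and 61.5 CPM at 0 h, 41.9 and 43.6 CPM at 3 h and 30.9 and 31.6 CPM at 6 h in BAP1-AID cells without IAA, a steady fall to a log2 fold change of -0.84 ± 0.086 (adjusted p = 1.72e-05). With IAA it went from 63.0 and 64.4 CPM to 29.9 and 29.5 CPM, the only RA response among the members that also passed a log2 fold change of 1 (-1.10 ± 0.086, adjusted p = 1.34e-06), where 1.34% of all genes fell that far. In UTX-AID cells without IAA Dusp4 stood at 13.1 and 14.8 CPM at 0 h, 16.5 and 16.5 CPM at 3 h and 8.37 and 10.3 CPM at 6 h. With IAA the difference of 3 h from 0 h did not pass (-0.21, adjusted p = 0.602). It did not pass without IAA either (0.25, adjusted p = 0.376), although the 3 h libraries were the highest there. From 3 to 6 h the log2 fold change was -0.82 ± 0.133 (adjusted p = 0.0051), a call lost without the first 6 h library (adjusted p = 0.0657). Against 0 h it was -0.57 ± 0.133 at 6 h (adjusted p = 0.00887), which held in 10 of 12 fits with 1 library left out and was lost without the second 0 h or the first 6 h library (adjusted p up to 0.139). The corresponding fall with IAA, from 17.9 and 18.6 CPM to 13.3 and 13.4 CPM (-0.44 ± 0.130, adjusted p = 0.0441), was lost without any one of those 4 libraries (adjusted p up to 0.240). At 3 h in BAP1-AID cells Dusp4 had already fallen without IAA (-0.40 ± 0.085, adjusted p = 0.00971), a call lost without the second 0 h library (-0.26, adjusted p = 0.114), and with IAA (-0.52 ± 0.085, adjusted p = 0.00161).

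Dusp6, by contrast, lay between 79.5 and 86.3 CPM in all 6 BAP1-AID libraries without IAA. Its log2 fold change at 6 h was 0.02 ± 0.069, with a 95% interval from -0.13 to 0.17. In UTX-AID cells it was -0.02 ± 0.084, with an interval from -0.19 to 0.16. Changes of the size seen for Spry2 lie outside both intervals. At 3 h in UTX-AID cells without IAA it stood at 69.8 and 79.1 CPM, above 66.3 and 59.0 CPM at 0 h, but the difference did not pass (0.26 ± 0.084, adjusted p = 0.095).

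The Sprouty genes split. Spry2 fell at once in BAP1-AID cells, from 79.0 and 81.2 CPM at 0 h to 43.8 and 51.9 CPM at 3 h, and stood at 49.1 and 48.1 CPM at 6 h. The log2 fold change was -0.75 ± 0.079 at 3 h (adjusted p = 4.15e-05) and -0.71 ± 0.079 at 6 h (adjusted p = 3.69e-05). In UTX-AID cells it went down in steps, from 52.7 and 52.2 CPM to 41.8 and 41.6 CPM and then 29.9 and 32.4 CPM. The log2 fold changes there were -0.32 ± 0.087 at 3 h (adjusted p = 0.0331) and -0.75 ± 0.088 at 6 h (adjusted p = 5.81e-06), with a further fall from 3 to 6 h (-0.43 ± 0.088, adjusted p = 0.0268). With IAA the 6 h values were -0.80 ± 0.080 in BAP1-AID and -0.82 ± 0.088 in UTX-AID cells. Spry2 fell at 6 h in each of the 4 settings with each library left out, while the 3 h call and the 3 to 6 h call in UTX-AID cells without IAA were each lost without any one of the 4 libraries compared (adjusted p up to 0.162). Whether the 3 h response differed between the lines was tested directly and did not pass (0.43 ± 0.121, adjusted p = 0.157).

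Spry4 took the opposite course early. In UTX-AID cells without IAA it went from 124 and 118 CPM to 171 and 172 CPM at 3 h and back to 113 and 101 CPM at 6 h. The 3 h libraries stood clear of all others, with a log2 fold change of 0.51 ± 0.065 at 3 h (adjusted p = 2.33e-05) and -0.68 ± 0.065 from 3 to 6 h (adjusted p = 1.94e-05). With IAA the 3 h value was 0.37 ± 0.065 (adjusted p = 0.000997). In BAP1-AID cells Spry4 stood at 113 and 124 CPM, then 131 and 156 CPM, then 116 and 115 CPM without IAA. The rise did not pass there (0.27 ± 0.081, adjusted p = 0.0638), although it did with the GC and length offsets (0.28, adjusted p = 0.00615) and without the first 3 h library (0.39, adjusted p = 0.000349), and without the second it was 0.12. It passed with IAA, from 106 and 109 CPM to 140.4 and 134 CPM (0.36 ± 0.081, adjusted p = 0.0164). The call with IAA held in 4 of 12 fits, those without a 0 h or 3 h library of the other arm, and adjusted p reached 0.213 in the rest. At 6 h the 4 log2 fold changes lay between -0.17 and 0.06, and none passed.

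Spred1, which binds RAS-pathway components and restrains RAF activation, rose in BAP1-AID cells. Without IAA it stood at 60.5 and 69.0 CPM at 0 h, 82.4 and 99.4 CPM at 3 h and 105 and 111 CPM at 6 h, with log2 fold changes of 0.48 ± 0.091 (adjusted p = 0.00459) and 0.74 ± 0.091 (adjusted p = 8.86e-05). The 3 h call was lost without the first 0 h library (0.32, adjusted p = 0.0633). With IAA it began higher and went from 101 and 104 CPM to 133 and 132 CPM at 6 h (0.37 ± 0.090, adjusted p = 0.0137), a call lost without any 1 of those 4 libraries (adjusted p up to 0.126). In UTX-AID cells without IAA it began at 133 and 121 CPM, above each BAP1-AID library without IAA, and stood at 129 and 125 CPM at 6 h (0.001 ± 0.067, 95% interval from -0.14 to 0.14). The difference between the lines in the 6 h response was itself past the test (-0.73 ± 0.115, adjusted p = 0.000829), in a comparison where 0.589% of all genes passed. No other member passed that test in edgeR. DESeq2 called Etv5 as well, whose fall was smaller in UTX-AID cells (0.33 ± 0.087, adjusted p = 0.0863 in edgeR). The 3 h difference was -0.39 ± 0.115 (adjusted p = 0.187), and at 3 h 0 members passed, against 0.315% of all genes. An unadjusted p under 0.05 was reached at 3 h by 5 members and by 1387 of all 16816 genes. DESeq2 called 1 member at 3 h, Dusp4 (0.65 ± 0.151, adjusted p = 0.0547 in edgeR). Spred1 has the lowest GC content of the members (43.2%, with 14.0% of genes lower), and with offsets for GC content and length its rise at 6 h in BAP1-AID cells was 0.55 and its 6 h difference between the lines was -0.58 (adjusted p = 0.00157).

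The ETS factors moved apart. Etv5, the most abundant member, fell from 492 and 488 CPM at 0 h to 393 and 386 CPM at 3 h and 297 and 296 CPM at 6 h in BAP1-AID cells without IAA. The log2 fold changes were -0.34 ± 0.059 (adjusted p = 0.00249) and -0.72 ± 0.059 (adjusted p = 2.31e-06). Etv5 in UTX-AID cells went from 296 and 295 CPM to 257 and 245 CPM and 234 and 211 CPM (-0.23 ± 0.060 and -0.40 ± 0.060, adjusted p = 0.0275 and 9.45e-05). The UTX-AID call at 3 h was lost without either 0 h library or the second 3 h library (adjusted p up to 0.238). With IAA the 6 h values were -0.70 ± 0.059 and -0.42 ± 0.060. Etv4, its close paralog, went the other way. It stood at 35.4 and 35.0 CPM, 42.4 and 43.2 CPM, and 47.4 and 44.2 CPM in BAP1-AID cells without IAA, with a 6 h log2 fold change of 0.38 ± 0.091 (adjusted p = 0.0111). In UTX-AID cells it stood at 67.5 and 70.7 CPM, 83.4 and 82.7 CPM, and 84.0 and 79.1 CPM. The UTX-AID rise passed at 3 h (0.27 ± 0.078, adjusted p = 0.0449) and not at 6 h without IAA (0.24 ± 0.078, adjusted p = 0.070), and passed at 6 h with IAA (0.40 ± 0.078, adjusted p = 0.00194). With IAA in BAP1-AID cells Etv4 went from 33.3 and 30.5 CPM to 44.0 and 39.2 CPM at 3 h (0.38 ± 0.091, adjusted p = 0.0219), a call lost with the GC and length offsets (0.28, adjusted p = 0.0798). The Etv4 calls depended on which libraries were used. The 6 h call in BAP1-AID cells was lost without any one of the 4 libraries compared (adjusted p up to 0.146), the 3 h call with IAA likewise and also without either 6 h library without IAA (adjusted p up to 0.328), the 3 h call in UTX-AID cells without any of its 4 or either 6 h library with IAA (adjusted p up to 0.196), and the 6 h call with IAA in UTX-AID cells without the second 0 h library (adjusted p = 0.0849).

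**Figure D2:**
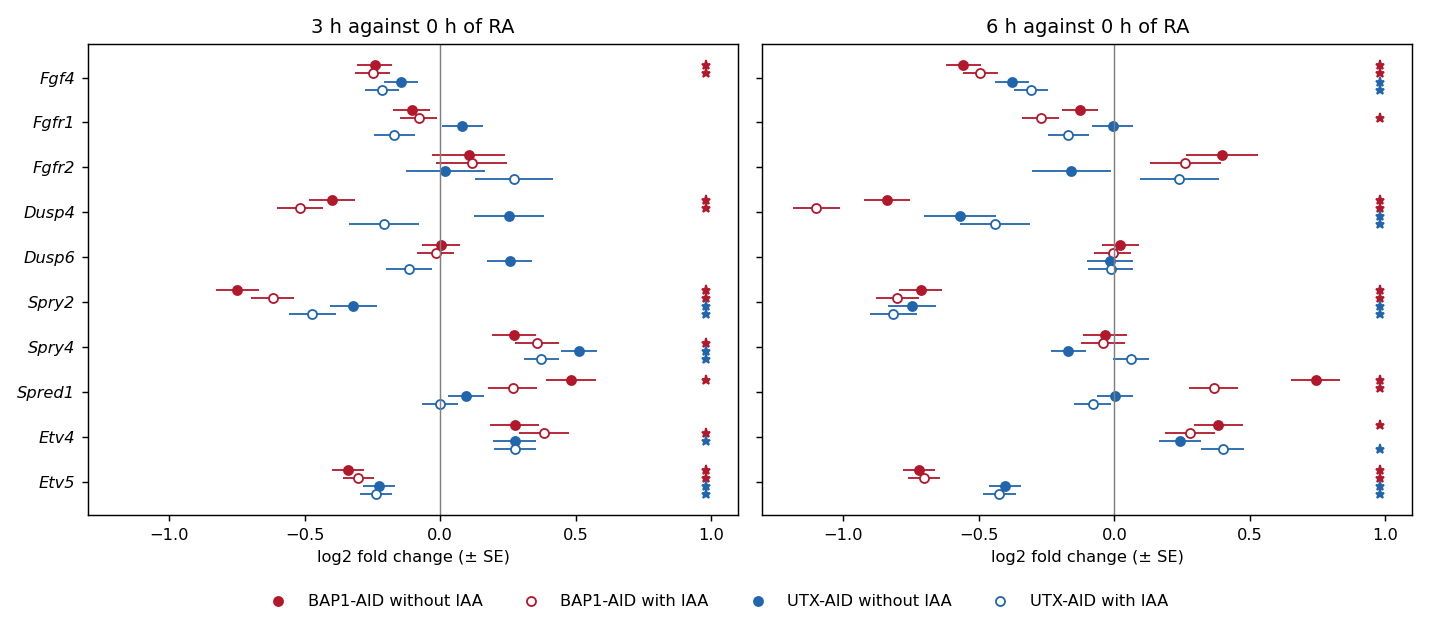
Log2 fold change against 0 h (horizontal axis, bars show ± 1 SE) of the 10 members at 3 h (left) and 6 h (right) of RA; red, BAP1-AID, blue, UTX-AID, filled without and open with IAA, and a star at the right marks adjusted p under 0.05. At 6 h the 4 points of Fgf4, Dusp4, Spry2 and Etv5 lie left of 0 with 4 stars each, those of Dusp6 lie near 0, and Spred1 lies right of 0 in BAP1-AID alone.

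The remaining counts follow the same order of comparisons. At 3 h without IAA, 1 member rose and 4 fell in BAP1-AID cells, against 5.77% and 1.97% of all genes, and 2 rose and 2 fell in UTX-AID cells, against 3.81% and 1.52%. At 3 h with IAA, 2 rose and 4 fell in BAP1-AID cells, against 4.69% and 1.94%, and 1 rose and 2 fell in UTX-AID cells, against 2.98% and 0.94%. At 6 h with IAA, 1 rose and 5 fell in BAP1-AID cells, against 8.91% and 6.51%, and 1 rose and 4 fell in UTX-AID cells, against 4.34% and 2.81%. Between 3 and 6 h without IAA, 3 members fell in BAP1-AID cells (Fgf4, Dusp4 and Etv5) and 3 in UTX-AID cells (Dusp4, Spry2 and Spry4), against 0.905% and 0.492% of all genes. The BAP1-AID calls of Dusp4 and Etv5 were lost without either 6 h library (adjusted p up to 0.167), and that of Fgf4 without either 6 h library or any 0 h or 6 h library with IAA (adjusted p up to 0.247). With 10 members, each share rests on 5 genes or fewer.

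Other genes of the pathway were taken from 6 lists, also written with earlier results of these data known. Up to 3 of each were named by size among those that passed in both lines in the same direction at 6 h without IAA. Of 17 other FGF ligands, 11 had enough counts for the BAP1-AID fit and 12 for the UTX-AID fit. Among these 5 fell and 1 rose in BAP1-AID, and 3 fell and 0 rose in UTX-AID cells. Of all genes, 5.17% fell and 10.9% rose in the former, and 2.82% fell and 4.46% rose in the latter. Fgf5, a ligand of the primed epiblast, went from 16.1 and 18.1 CPM to 2.28 and 2.58 CPM in BAP1-AID (log2 fold change -2.81 ± 0.209) and from 3.80 and 5.86 CPM to 0.623 and 0.706 CPM in UTX-AID cells (-2.85 ± 0.434). Fgf15 went from 78.9 and 83.9 CPM to 21.8 and 25.3 CPM (-1.78 ± 0.101) and from 33.6 and 42.4 CPM to 14.2 and 19.9 CPM (-1.16 ± 0.149). Fgf4 was therefore not the ligand with the largest proportional fall.

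Upstream of ERK, genes of both lists moved in both directions in BAP1-AID cells, where 10.9% of all genes rose and 5.17% fell. In UTX-AID cells 4.46% of all genes rose and 2.82% fell. The counts of these lists were not tested against those shares. Of 22 tested genes for other receptors and heparan sulfate, 4 rose and 3 fell in BAP1-AID and 0 rose and 1 fell in UTX-AID cells. Sdc1, a heparan sulfate proteoglycan of the cell surface, fell in both (-0.45 ± 0.075 and -0.37 ± 0.106). Of 24 adaptors, RAS genes and kinases, 3 rose and 2 fell in BAP1-AID and 2 rose and 1 fell in UTX-AID cells. Ksr1, a scaffold for RAF, MEK and ERK, went from 3.09 and 3.32 CPM to 16.5 and 17.9 CPM in BAP1-AID (2.43 ± 0.123) and from 3.50 and 3.94 CPM to 16.1 and 16.5 CPM in UTX-AID cells (2.13 ± 0.165). Shc1, an adaptor, fell (-0.54 ± 0.062 and -0.23 ± 0.065), and Braf rose (0.34 ± 0.072 and 0.22 ± 0.059). The median over this list was 0.06 and 0.003, against 0.02 and -0.003 over all genes.

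Feedback inhibitors outside the 10 members moved in both directions. Of 12 tested, 4 rose and 3 fell in BAP1-AID and 3 rose and 1 fell in UTX-AID cells. Dusp9, an ERK phosphatase, went from 39.8 and 43.3 CPM to 292 and 299 CPM in BAP1-AID cells (2.84 ± 0.071, adjusted p = 3.78e-11) and from 42.7 and 43.2 CPM to 135 and 145 CPM in UTX-AID cells (1.71 ± 0.069, adjusted p = 2.05e-12). Dusp5, a nuclear ERK phosphatase, rose by 1.54 ± 0.108 and 0.96 ± 0.241, and Spred2 by 0.83 ± 0.111 and 0.67 ± 0.060. Dusp4 fell and Dusp6 did not pass the test while Dusp5 and Dusp9 rose, so the phosphatase transcripts did not move as 1 group.

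Genes that answer ERK moved in both directions, while those that passed in a list of repressors and ETS factors all rose. Beside both lists, 10.9% of all genes rose and 5.17% fell in BAP1-AID cells. The shares were 4.46% and 2.82% in UTX-AID cells. Of 12 other ERK-responsive genes, 2 rose and 5 fell in BAP1-AID and 1 rose and 5 fell in UTX-AID cells. Egr1, an immediate early gene, fell (-0.98 ± 0.096 and -0.66 ± 0.150), as did Ier3 (-0.64 ± 0.176 and -0.65 ± 0.138), whereas Phlda1 rose (0.99 ± 0.174 and 0.70 ± 0.193). Of 10 genes for ETS and CIC repressors, ternary complex factors and the activators ETS1 and ETS2, 3 rose and 0 fell in each line. They were Erf, Cic and Ets2 in both lines, so no ternary complex factor passed. Erf, an ETS repressor that ERK exports from the nucleus, went from 60.4 and 69.5 CPM to 183 and 192 CPM in BAP1-AID (1.53 ± 0.082) and from 56.6 and 57.3 CPM to 159 and 174 CPM in UTX-AID cells (1.55 ± 0.064). Cic rose by 0.59 ± 0.078 and 0.37 ± 0.094, and Ets2 by 0.49 ± 0.083 and 0.33 ± 0.098.

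**Figure D3:**
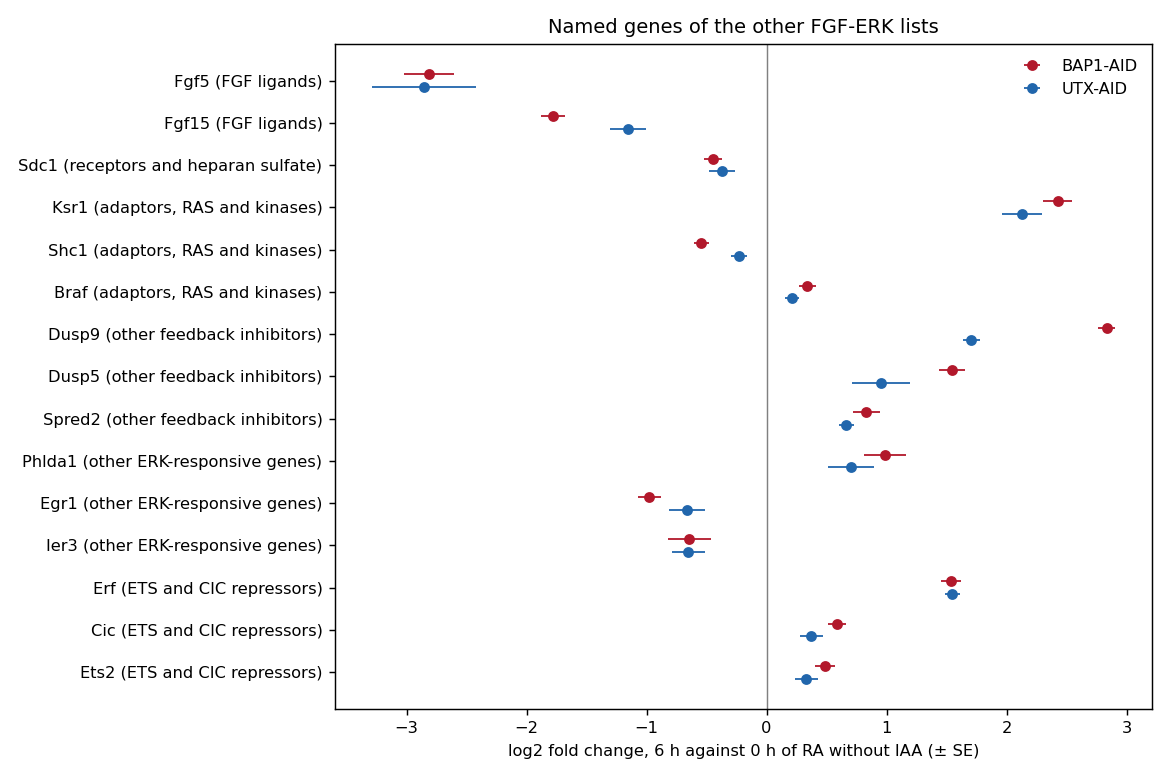
Log2 fold change at 6 h against 0 h of RA without IAA (horizontal axis, bars show ± 1 SE) of 15 named genes from the other pathway lists, red for BAP1-AID and blue for UTX-AID. Fgf5 lies lowest at -2.81 and -2.85, Ksr1, Dusp9 and Erf lie highest, and both lines lie on the same side of 0 because the genes were named for that.

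The next comparison asked whether the level of the members differed with IAA, given to deplete the tagged protein. No cells without a tag were given IAA among these groups. IAA itself and loss of the tagged protein therefore cannot be told apart. In BAP1-AID cells, averaged over 0, 3 and 6 h of RA, Fgfr2 and Spred1 were higher with IAA and Fgf4, Etv4 and Etv5 lower, where 18.1% of all genes were higher and 18.2% lower. Fgfr2 stood at 17.3 and 22.6 CPM without and 29.9 and 29.1 CPM with IAA at 0 h. The arms did not overlap at 3 h or 6 h either (18.6 and 24.5 against 31.9 and 32.0 CPM, and 26.0 and 26.3 against 36.3 and 34.3 CPM). With 2 libraries a side, this was so for 9, 5 and 10 of the 10 members at 0, 3 and 6 h. The share over all genes was not counted. For Fgfr2 the test gave the following. Its mean log2 fold change was 0.51 ± 0.077 (adjusted p = 0.000193). Spred1 stood at 60.5 and 69.0 CPM without and 101 and 104 CPM with IAA at 0 h (0.66 ± 0.091, adjusted p = 0.000234), and its mean was 0.46 ± 0.052 (adjusted p = 1.98e-05). Fgf4 stood at 279 and 269 CPM without and 233 and 233 CPM with IAA at 0 h (-0.25 ± 0.064, adjusted p = 0.0172), and its mean was -0.23 ± 0.037 (adjusted p = 0.000393). These 3 were the members past the test at 0 h, where 18.6% of all genes passed, and again at 3 h, where 13.8% did. At 6 h 0 members passed in edgeR, against 12.5% of all genes. An unadjusted p under 0.05 was reached at 6 h by 6 members and by 4011 of all 15695 genes. DESeq2 called 5 members at 6 h, with Fgfr2 (0.43) and Spred1 (0.29) higher and Fgf4 (-0.17), Etv5 (-0.15) and Fgfr1 (-0.19) lower. The 12.5% is the share in edgeR, and none is given here for DESeq2.

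A base composition trend moved with IAA in the same line and bears on these values. Across 12001 genes, Spearman's rho between a gene's deviation in a library and its GC content ran from 0.206 to 0.440 in the 6 BAP1-AID libraries without IAA and from -0.482 to -0.245 in the 6 with IAA, against -0.198 to 0.128 and -0.0298 to 0.114 in UTX-AID libraries. With offsets for GC content and length, the mean log2 fold change of Fgfr2 was 0.55 (adjusted p = 2.31e-05), close to the value without them. That of Spred1 shrank to 0.18 (adjusted p = 0.00222) and that of Fgf4 to -0.12 (adjusted p = 0.0131). The fall of Etv5 (-0.16 ± 0.034, adjusted p = 0.00293) became -0.06 (adjusted p = 0.116), and that of Etv4 (-0.15 ± 0.053, adjusted p = 0.0392), whose transcript has the highest GC content of the members (58.7%), turned to 0.06 (adjusted p = 0.406). The Etv4 call was also lost in 10 of 12 fits with 1 library left out. Dusp4, uncorrected at 0.04 ± 0.049 (adjusted p = 0.532), became 0.24 (adjusted p = 0.00194). At 0 h Fgf4 no longer passed with the offsets (-0.10, adjusted p = 0.277), while Fgfr2 (0.61, adjusted p = 0.00253) and Spred1 (0.28, adjusted p = 0.0103) did. At 3 h Spred1 (0.18, adjusted p = 0.103) and Fgf4 (-0.18, adjusted p = 0.0735) no longer passed. The calls at single times also rested on few libraries. That of Fgf4 at 0 h was lost without the first library without IAA or either with it (adjusted p up to 0.149), that of Fgfr2 at 0 h without the first library of either arm (adjusted p up to 0.126), and that of Fgfr2 at 3 h without the first library without IAA or either with it (adjusted p up to 0.0808). At 3 h Fgf4 was lost without either library with IAA (adjusted p up to 0.220) and Spred1 without the second (0.31, adjusted p = 0.0672).

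In UTX-AID cells 4 members were lower with IAA on average and 0 higher, against 2.03% and 1.12% of all genes. They were Spry2 (-0.23 ± 0.051, adjusted p = 0.0164), Dusp6 (-0.22 ± 0.049, adjusted p = 0.0167), Spry4 (-0.17 ± 0.038, adjusted p = 0.0187) and Fgfr1 (-0.19 ± 0.044, adjusted p = 0.0223). Dusp4, also a feedback inhibitor, was higher on average without passing (0.28 ± 0.076, adjusted p = 0.0517), and passed without the second 6 h library without IAA or the second 3 h library with it (adjusted p down to 0.0344). DESeq2 called 5 members, Dusp4 being the fifth. The differences of the 4 lower members were largest at 3 h of RA, while that of Dusp4 was -0.07 then (adjusted p = 0.929). Tested against the difference at 0 h, that at 3 h passed for 0 members. At 3 h Dusp6 stood at 69.8 and 79.1 CPM without and 52.1 and 56.2 CPM with IAA (-0.47 ± 0.084, adjusted p = 0.0145). Spry4 stood at 171 and 172 CPM without and 138 and 135 CPM with IAA (-0.34 ± 0.065, adjusted p = 0.0238). Neither pair of arms overlapped, which was so for 5 of the 10 members at 3 h, and the share over all genes was not counted. Dusp6 and Spry4 were the 2 members that passed at 3 h, against 0.418% of all genes. At 0 h and at 6 h 0 members passed in edgeR and in DESeq2, against 0.184% and 0.0799% of all genes. An unadjusted p under 0.05 was reached there by 2 members (Dusp4 and Spry4) and 3 members (Dusp4, Fgfr1 and Spry2). Of all 16268 genes, 1328 and 1037 did so. The Dusp4 values were positive (0.39 ± 0.130 and 0.52 ± 0.133). The GC and length offsets left the 4 mean values between -0.24 and -0.17. The averages did not survive all omissions. That of Spry2 was lost without the first 0 h or the first 3 h library with IAA (adjusted p up to 0.069), and that of Dusp6 without the first 3 h or the first 6 h library with IAA (adjusted p up to 0.0664). The Spry4 call was lost without either 0 h, the second 3 h or the second 6 h library with IAA (adjusted p up to 0.0728). The Fgfr1 call was lost without the second library of any time without IAA, or the first 0 h, second 3 h or first 6 h library with it (adjusted p up to 0.0941). At 3 h Dusp6 was lost without the second library without IAA or either with it (adjusted p up to 0.192), and Spry4 without any 1 of the 4 libraries (adjusted p up to 0.238). Of the 12 other ERK-responsive genes, 2 had a higher level with IAA and 4 a lower one in BAP1-AID cells. Of all genes, 18.1% were higher and 18.2% lower in that line. In UTX-AID cells the list had 0 higher and 4 lower, against 1.12% and 2.03% of all genes. Egr1 was lower in both lines (-0.99 ± 0.088 in UTX-AID, adjusted p = 1.72e-06, and -0.35 ± 0.055 in BAP1-AID cells, adjusted p = 0.000331).

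The difference between the lines in the average effect of IAA was tested too. It passed for 5 members, against 26.2% of all genes. Spred1 (-0.49 ± 0.066, adjusted p = 2.21e-06) and Fgfr2 (-0.46 ± 0.104, adjusted p = 0.00133) had the larger differences, both less raised with IAA in UTX-AID than in BAP1-AID cells. With the offsets Fgfr2 was at -0.49 and Spred1 shrank to -0.19 (adjusted p = 0.0181), below Spry2 in size (-0.22). Without them Etv5 (0.18 ± 0.050), Fgf4 (0.16 ± 0.057) and Spry2 (-0.19 ± 0.070) passed with smaller values, and Etv5 and Fgf4 no longer passed with the offsets (0.09 and 0.05, adjusted p = 0.188 and 0.540).

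**Figure D4:**
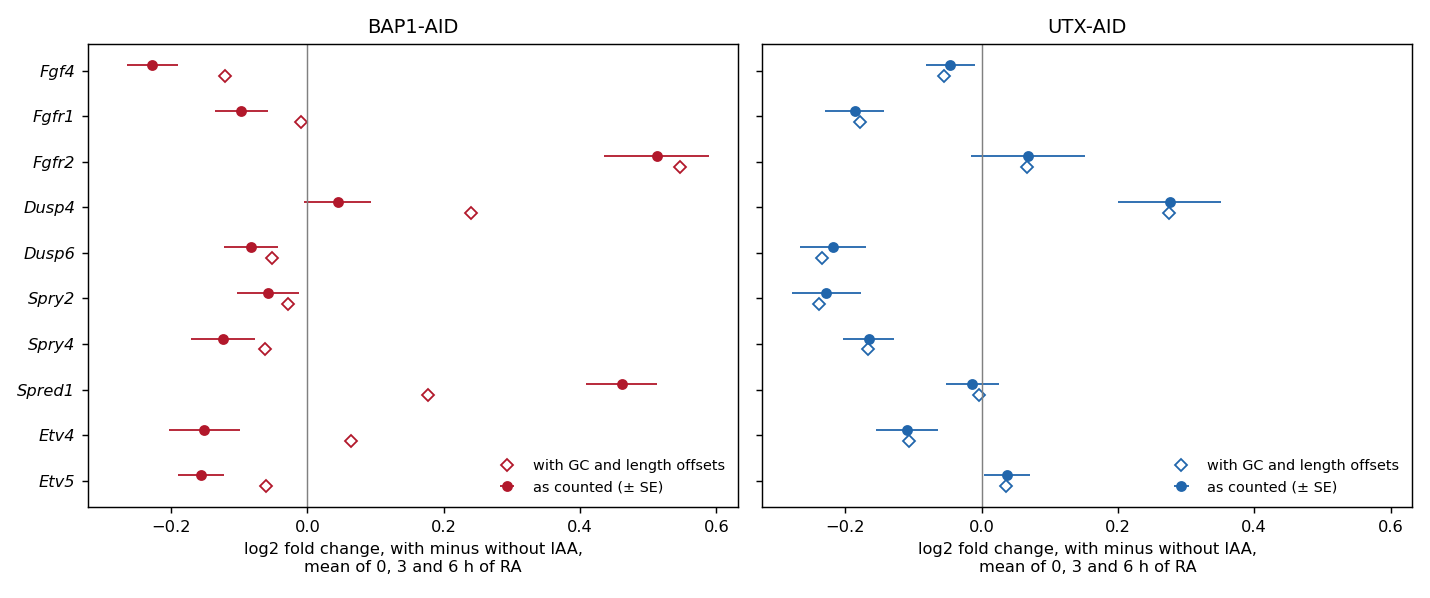
Log2 fold change of the 10 members with against without IAA, averaged over 0, 3 and 6 h of RA (horizontal axis), in BAP1-AID (left) and UTX-AID (right); filled points with bars are the counts as deposited ± 1 SE, open diamonds the same with GC and length offsets, drawn without an error. In BAP1-AID the diamonds of Spred1, Fgf4 and Etv5 lie closer to 0 and that of Etv4 crosses it, Fgfr2 stays near 0.5, and in UTX-AID points and diamonds nearly coincide.

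The test of whether IAA altered the RA response itself found no member. At 3 h 0 members passed in either line, and at 6 h likewise, in edgeR and in DESeq2. Without adjustment, a p under 0.05 was reached in BAP1-AID cells by 0 members at 3 h and 1 member at 6 h. The counts in UTX-AID cells were 3 members (Dusp4, Dusp6 and Fgfr1) and 1 member (Spry4). Of all genes, 0.0% and 0.172% passed at 3 and 6 h in BAP1-AID cells. The shares were 0.0123% and 0.00615% in UTX-AID cells. Without adjustment, a p under 0.05 was reached by 1141 and 1585 of 15695 genes in BAP1-AID cells. In UTX-AID cells it was reached by 642 and 532 of 16268. For the 4 members that fell at 6 h throughout, the 95% intervals of the altered response in BAP1-AID cells ran from -0.13 to 0.26 for Fgf4, from -0.52 to 0.0009 for Dusp4, from -0.33 to 0.16 for Spry2 and from -0.16 to 0.20 for Etv5. In UTX-AID cells they ran from -0.11 to 0.26, from -0.26 to 0.52, from -0.33 to 0.19 and from -0.20 to 0.16. A full loss of the 6 h response, taken at its estimated value without IAA, lies outside the interval for each of them in both lines. That value has a spread of its own. For Dusp4 in UTX-AID cells it was -0.57, and between -0.72 and -0.44 with 1 library left out, so a full loss is not firmly excluded there. The value past an unadjusted p of 0.05 in BAP1-AID cells was that of Spred1 at 6 h (-0.38 ± 0.128, adjusted p = 0.304). It passed when either 3 h library without IAA was left out.

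The lines also differed before RA. At 0 h without IAA 7 members were lower and 2 higher in UTX-AID than in BAP1-AID cells, against 27.3% and 25.4% of all genes, and 3 (Dusp4, Fgfr1 and Fgfr2) passed an absolute log2 fold change of 1 as well, against 20.8% of all genes. Dusp4 differed by the largest fold among the members, at 13.1 and 14.8 CPM against 50.9 and 61.5 CPM (log2 fold change -2.01 ± 0.109, adjusted p = 9.86e-15). Both receptor transcripts were lower, Fgfr1 at 53.2 and 58.7 CPM against 122 and 132 CPM (-1.17 ± 0.076, adjusted p = 3.13e-13) and Fgfr2 at 9.99 and 9.02 CPM against 17.3 and 22.6 CPM (-1.06 ± 0.129, adjusted p = 6.47e-08). Etv5 (-0.72 ± 0.061), Spry2 (-0.60 ± 0.085), Dusp6 (-0.38 ± 0.082) and Fgf4 (-0.32 ± 0.070) were lower too. Etv4 (0.98 ± 0.089) and Spred1 (0.98 ± 0.082) were about 1.97-fold higher, and Spry4 did not differ beyond its spread (0.04 ± 0.076, adjusted p = 0.697). These values also depended on the offsets, in which GC content and transcript length were fitted together. With the offsets Fgf4 was at -0.0002 (adjusted p = 1.0), Spry4 rose to 0.42 (adjusted p = 2.45e-06), Spred1 shrank to 0.33 (adjusted p = 0.000251), Etv5 to -0.34, Fgfr1 to -0.67, Fgfr2 to -0.67 and Dusp4 to -1.62, while Etv4 grew to 1.34. Of the 3 members past a log2 fold change of 1, Dusp4 remained so with the offsets, and Etv4 then exceeded it. The tagged protein and the clone cannot be told apart here.

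**Figure D5:**
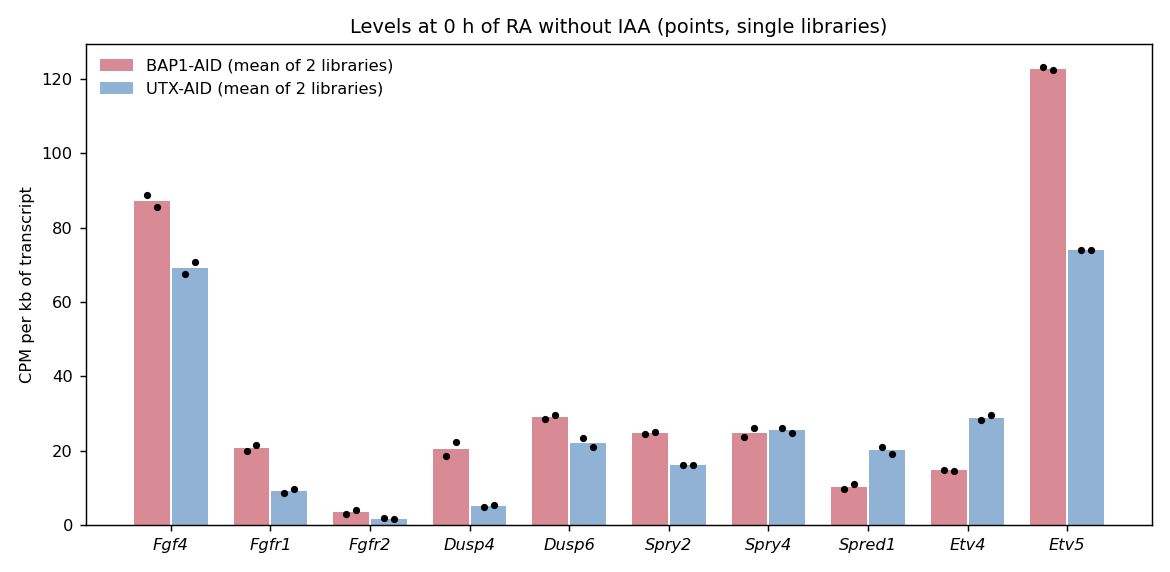
Level of the 10 members at 0 h of RA without IAA in CPM per kb of canonical transcript (vertical axis, from 0), as the mean of 2 libraries (bars; red, BAP1-AID, blue, UTX-AID) with both libraries as points. Etv5 and Fgf4 are highest in both lines, Dusp4, Fgfr1 and Fgfr2 are lower in UTX-AID, and Etv4 and Spred1 are higher there.

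Across the 24 libraries, centred on the mean of each line, the members that fell varied together. Pearson's r of log2 CPM was 0.93 for Fgf4 and Etv5, 0.82 for Etv5 and Dusp4, 0.82 for Etv5 and Spry2 and 0.81 for Fgf4 and Spry2. Etv4 ran against Etv5 (-0.63) and Spry2 (-0.72), and Dusp6 was near 0 with Dusp4 (-0.04) and Etv5 (0.02). Fgfr2 and Spred1 went together (0.85). These values describe libraries that share RA time, IAA arm and base composition, and carry no test. Among 9828 genes with a mean of at least 5 CPM, the genes most like each member by the same measure were Gng2 (0.95) and Kdm2b (0.94) for Fgf4, Fgf15 (0.97) and Pim2 (0.95) for Etv5, Sall1 (0.96) and Trim2 (0.96) for Spry2, and Slc7a7 (0.88) and Smad3 (0.86) for Dusp4. For the members that did not fall together they were Zc3h12a (0.92) and Prx (0.90) for Etv4, Epha2 (0.87) and Tbc1d9 (0.86) for Spry4, Arhgap11a (0.93) and Atf2 (0.93) for Spred1, Ddx5 (0.93) and Gas2 (0.90) for Fgfr2, Spred3 (0.86) and Lamb1 (0.85) for Fgfr1, and Ppp1r10 (0.75) and Coq4 (0.71) for Dusp6. Fgf15, nearest to Etv5, and Epha2, nearest to Spry4, belong to the pathway lists described above.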

How the data were processed

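Poly(A) RNA of 24 libraries was sequenced. Per the labels and the study's methods, the authors aligned reads with HISAT2 2.2.1 to mm39, and deposited whole-number estimated counts per gene made with StringTie 2.2.1. The annotation, strandedness and read length were not given in the sources used here. The members and gene lists were chosen with earlier results of these data known.

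Counts were tested as deposited with edgeR 4.0.16 (R 4.3.3; TMM, filterByExpr with a minimum count of 10 and total of 15, robust quasi-likelihood F test, Benjamini-Hochberg over all genes), on the 12 libraries of each line with 1 coefficient per group, and on all 24 for differences between the lines. Between 15695 and 16816 genes were tested. Libraries held 42018795 to 54034789 counts, so that a floor of 3 counts lay between 0.0545 and 0.0693 CPM, which covers counting error only. Gene positions came from GENCODE vM39, where 91.0% of symbols matched. Alternatives were DESeq2 1.42.0, RLE size factors, no filter, offsets for GC content and transcript length, a replicate block, each library omitted once, all libraries in 1 fit and a fold threshold. The named genes were the 10 members and, of each other pathway list, up to 3 with the largest change averaged over the lines at 6 h without IAA among those past the test the same way in both. On simulated counts with a log2 change of 1 in 200 genes, the 6 h contrast recovered 112 in BAP1-AID and 116 in UTX-AID designs.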

Additional observations from a re-analysis of the deposited data

Results flagged for a closer look

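The members whose response differed between BAP1-AID and UTX-AID cells by a test of the difference itself are listed here, as UTX-AID minus BAP1-AID on the log2 scale. The 6 h RA response of Spred1 without IAA differed by -0.7285 (SE 0.115, adjusted p = 0.000829 in edgeR). It passed with each of the 24 libraries left out in turn, with adjusted p up to 0.0238. For the average effect of IAA the difference passed for 5 members, against 26.2% of all genes. That effect differed for Spred1 by -0.4924 and for Fgfr2 by -0.4622, and both passed in all 24 such fits. With GC and length offsets the Spred1 difference shrank to -0.19 (adjusted p = 0.0181), and that of Fgfr2 was -0.49. That of Etv5 differed by 0.176 and also passed in all 24, but with GC and length offsets it was 0.09 (adjusted p = 0.188). That of Fgf4 differed by 0.1631, passed in 10 of 24 fits with a library left out, and was 0.05 with the offsets (adjusted p = 0.540). For Spry2 the difference was -0.1884, which passed in 7 of 24 fits, and -0.22 with the offsets (adjusted p = 0.0128). Each line is 1 clone, so the tagged protein and the clone cannot be told apart in any of these values.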

How the results depend on the processing

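Over the members and comparisons, 82 values passed in the counts as deposited. DESeq2 kept 82 of them, RLE size factors 80, no filter on low counts 79, the GC and length offsets 72, and a fit of all 24 libraries 65 of 67. DESeq2 also added 17 calls. The shares of all genes are those of edgeR, so the counts from DESeq2 have no share beside them. The fall of Etv4 with IAA in BAP1-AID cells turned to 0.0634 with the offsets (adjusted p = 0.406) and to 0.0633 with the offsets and a replicate block (adjusted p = 0.417). The cause was not tested.

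With a log2 fold change over 1 required as well, the count of members was 0 for RA at 3 and 6 h without IAA and for the average effect of IAA in both lines, 0 at 6 h with IAA in UTX-AID cells, 1 in BAP1-AID cells, 3 for the lines at 0 h and 0 for their 6 h difference. By adjusted p alone, the count for the 6 h difference was 1, and it was 2 with DESeq2 and 2 with offsets and block.

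With 1 library left out, the counts in BAP1-AID cells ran from 3 to 6 at 3 h, 5 to 8 at 6 h, 4 to 7 at 6 h with IAA, 4 to 8 for the average effect of IAA and 0 to 1 for the altered 6 h response. In UTX-AID cells they ran from 1 to 4, 3 to 4, 3 to 5 and 1 to 4, and 0 to 0 for the altered response. Between the lines they stayed at 9 at 0 h and ran from 1 to 2 for the 6 h difference. A lone remaining library was assumed to vary like the other groups.

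The labels number the replicates alike in each group. Deviations of same-numbered libraries correlated over 0.1 in 1 of 15 pairs of BAP1-AID groups (-0.124 to 0.232, median -0.020). In UTX-AID cells they did so in 10 of 15 pairs, and all were positive (0.019 to 0.208, median 0.123). The main fits did not pair the libraries by number in either line, so they ignore any effect that same-numbered UTX-AID libraries share. With the replicate block all 82 calls were kept and 12 were added. Of these, 5 were RA responses and 2 IAA effects in UTX-AID cells, among them Dusp4 for the average effect of IAA (0.28), Etv4 at 6 h without IAA (0.24) and Fgf4 and Etv4 at 3 h with IAA, where the count went from 3 to 5. In BAP1-AID cells 1 RA response and 3 IAA effects were added, and between the lines the 3 h difference of Dusp4.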
